A study of Mus musculus with 18 samples.

Results

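The TNF superfamily was followed in adipose tissue of mice on a high fat diet with and without caspase-6. Its members were taken by gene symbol, as every gene whose symbol starts with Tnfsf or Tnfrsf and a number, together with Tnf, Lta, Ltb, Ltbr, Fas, Fasl, Cd27, Cd40, Cd40lg, Cd70, Ngfr, Eda, Edar and Eda2r. This gave 45 of the 25124 genes counted, 18 ligands and 27 receptors. RNA came from 3 fat depots, the inguinal white (iWAT), the epididymal white (eWAT) and the brown one (BAT), of male mice on a C57BL/6J background, either wildtype (WT) or with a global knockout of Casp6 (C6KO). Both genotypes were born to heterozygous parents and received the same high fat diet (HFD, 60% fat) for 12 weeks, begun at 10 to 14 weeks of age, and no group on another diet was compared. The knockout was present in every cell of the animal, not in adipocytes alone. Each depot had 3 WT and 3 C6KO libraries, 18 in all.

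Ligands of this superfamily are mostly trimeric proteins that sit on the cell surface or are cleaved from it, and their receptors pass the signal through TRAF adaptors to NF-kappaB and MAP kinases. Receptors with a death domain can instead recruit FADD and caspase-8. In adipose tissue TNF itself is known as a macrophage product that dampens insulin signalling and lipid storage in adipocytes, while other members act between lymphocytes, on bone-resorbing osteoclasts or in skin appendages.

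Total counts were 16506034 to 19043523 per library for iWAT, 16717201 to 19139694 for eWAT and 7803108 to 12428683 for BAT. No C6KO library reached the Casp6 level of a WT library of its depot, with 18.7 ± 2.27 against 6.55 ± 1.27 CPM in iWAT, 20.5 ± 2.26 against 5.65 ± 1.22 in eWAT and 14.6 ± 3.82 against 5.12 ± 1.93 in BAT (CPM, reads per 1e+06 after TMM scaling, ± SD, n = 3). Some libraries were high in markers of other cell types. The BAT WT 2 library had a summed level of 81.4 CPM over 5 B cell markers, against 1.27 to 3.67 in the other BAT libraries, and 22647 CPM over 4 skeletal muscle markers, against 28.2 to 4965. In eWAT, WT 2, WT 3 and C6KO 3 had B cell marker sums of 60.0, 166 and 228 CPM, against 10.04 to 12.9 in the remaining 3. Lymph node markers such as Cr2 and Cxcl13 summed to 91.6 and 123 CPM in eWAT WT 3 and C6KO 3, against 4.38 to 18.9 in the other eWAT libraries. In BAT that sum was 30.3 CPM in WT 2, against 1.80 to 8.08 elsewhere. Whether lymph node was dissected with the fat was not tested. Brown adipocyte markers such as Ucp1 and Cidea summed to 6077 to 13201 CPM in BAT and to no more than 82.4 CPM in the white depots, and mesothelial markers such as Msln and Upk3b, which belong to visceral fat, reached 38.3 to 158 CPM in eWAT and at most 2.002 CPM elsewhere. Epididymis markers were at or near 0 in every library.

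The promoters of Tnfrsf12a and Tnfrsf11a are shown because Tnfrsf12a was the member called between genotypes by edgeR and Tnfrsf11a did not overlap between genotypes in any depot. Tnfrsf12a is the receptor of TWEAK, on the minus strand of chromosome 17 (mm10, chr17:23675445-23677449), and Tnfrsf11a is RANK, the receptor of the osteoclast factor RANKL, on the plus strand of chromosome 1 (chr1:105780723-105847981). Each sequence holds the 250 bases before the start of the transcript that was counted, from RefSeq on GRCm38.p6, the assembly named mm10, at chr17:23677450-23677699 and chr1:105780473-105780722. Capitals mark GGGCGG on either strand, the GC box that SP1 and related zinc finger factors are known to bind.
Tnfrsf12a: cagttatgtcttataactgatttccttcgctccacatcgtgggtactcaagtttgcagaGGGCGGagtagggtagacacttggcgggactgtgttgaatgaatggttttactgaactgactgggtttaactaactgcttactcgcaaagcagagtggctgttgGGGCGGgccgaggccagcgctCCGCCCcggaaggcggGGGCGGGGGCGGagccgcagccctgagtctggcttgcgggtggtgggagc
Tnfrsf11a: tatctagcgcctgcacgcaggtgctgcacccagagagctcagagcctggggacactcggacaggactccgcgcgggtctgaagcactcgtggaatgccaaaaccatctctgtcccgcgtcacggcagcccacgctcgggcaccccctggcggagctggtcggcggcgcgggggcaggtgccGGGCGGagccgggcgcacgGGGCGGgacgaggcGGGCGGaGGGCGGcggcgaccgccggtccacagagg
The Tnfrsf12a window held 5 such matches and the Tnfrsf11a window 4. Of 32851 RefSeq promoter windows of this length, 32.7% held at least 1 match, 4.09% at least 4 and 1.93% at least 5. A promoter was found for 35 of the 45 members. Of these 35, 18 (51.4%) held the motif in at least 1 of their windows. Among them were Tnf with 1 match, Tnfrsf1b with 2 and Tnfrsf21 with 1. Eda held 6 matches, more than Tnfrsf12a, and Ngfr held 4, and both overlapped between genotypes in each depot. Some members had more than 1 window, so this share of genes is not counted in the same way as the 32.7% of windows. The entries that were missing are those of Cd40, Cd40lg, Cd70, Tnfrsf10b, Tnfrsf11b, Tnfrsf22, Tnfrsf26, Tnfsf12, Tnfsf4 and Tnfsf9. A match is a run of letters, and binding was not measured.

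Levels of different genes were compared as length-scaled transcript levels (TPM), computed from the counts and the transcript length listed with each gene. Among the receptors, Tnfrsf1a, the broadly expressed receptor of TNF, stood highest in WT mice of every depot, at 288 ± 8.42 TPM in iWAT, 268 ± 6.86 in eWAT and 173 ± 15.5 in BAT (SD, n = 3). In iWAT its reads numbered 4279, 4135 and 4213 for WT, and 4910, 4840 and 4253 for C6KO. The eWAT libraries held 3855, 4208 and 3958 for WT, and 4105, 4820 and 4455 for C6KO, and those of BAT 1344, 1725 and 1739, then 1271, 1930 and 1446. Ltbr, the lymphotoxin beta receptor, came next in iWAT at 120 ± 6.65 TPM, whereas in eWAT (107 ± 9.07) Tnfrsf1b stood above it at 118 ± 11.2 and in BAT (66.4 ± 4.90) Tnfrsf12a did at 82.7 ± 30.5 and Fas at 72.6 ± 16.6. The Ltbr reads in iWAT were 1769, 1712 and 1664 for WT, then 1723, 1668 and 1639 for C6KO. Those in eWAT were 1446, 1605 and 1654 for WT, then 1470, 1777 and 1498 for C6KO, and those in BAT 524, 637 and 642, then 504, 732 and 686. The genotypes overlapped in each depot. Fas, the prototype death receptor, reached 64.0 ± 12.4 TPM in iWAT, 40.6 ± 2.71 in eWAT and 72.6 ± 16.6 in BAT. Each of these receptors was plainly detected in every library of both genotypes.

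The most abundant ligand in each depot was Tnfsf12, which encodes TWEAK, at 81.5 ± 7.89 TPM (iWAT), 170 ± 24.3 (eWAT) and 27.9 ± 2.35 (BAT) in WT mice. Tnfsf13, the plasma cell survival factor APRIL, had 25.3 ± 2.82, 58.2 ± 8.48 and 11.0 ± 2.07 TPM, and Tnfsf10, the death ligand TRAIL, 24.8 ± 3.06, 16.4 ± 3.23 and 16.6 ± 2.79 TPM. Exons of Tnfsf12 and Tnfsf13 partly overlap those of a read-through gene, Tnfsfm13, over 728 and 983 bases. Reads on the shared exons therefore cannot be assigned to one of the 3 genes with certainty. Tnf itself was a minor transcript, at 2.02 ± 0.511 TPM in iWAT, 10.3 ± 3.22 in eWAT and 0.712 ± 0.200 in BAT. Ltb, a lymphocyte ligand, came next after Tnfsf12 and Tnfsf13 among eWAT ligands, at 20.5 ± 14.4 TPM, with 34, 267 and 176 reads for WT, then 38, 40 and 294 for C6KO. Its high libraries were the ones with high B cell markers in both genotypes. Cd70 had no read in iWAT or BAT and at most 2 in an eWAT library, and Edar at most 9 in any library. The plot of WT levels by depot shows the spread from Tnfrsf1a and Tnfsf12 down to ligands such as Tnfsf15 and Cd70.

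**Figure D1:**
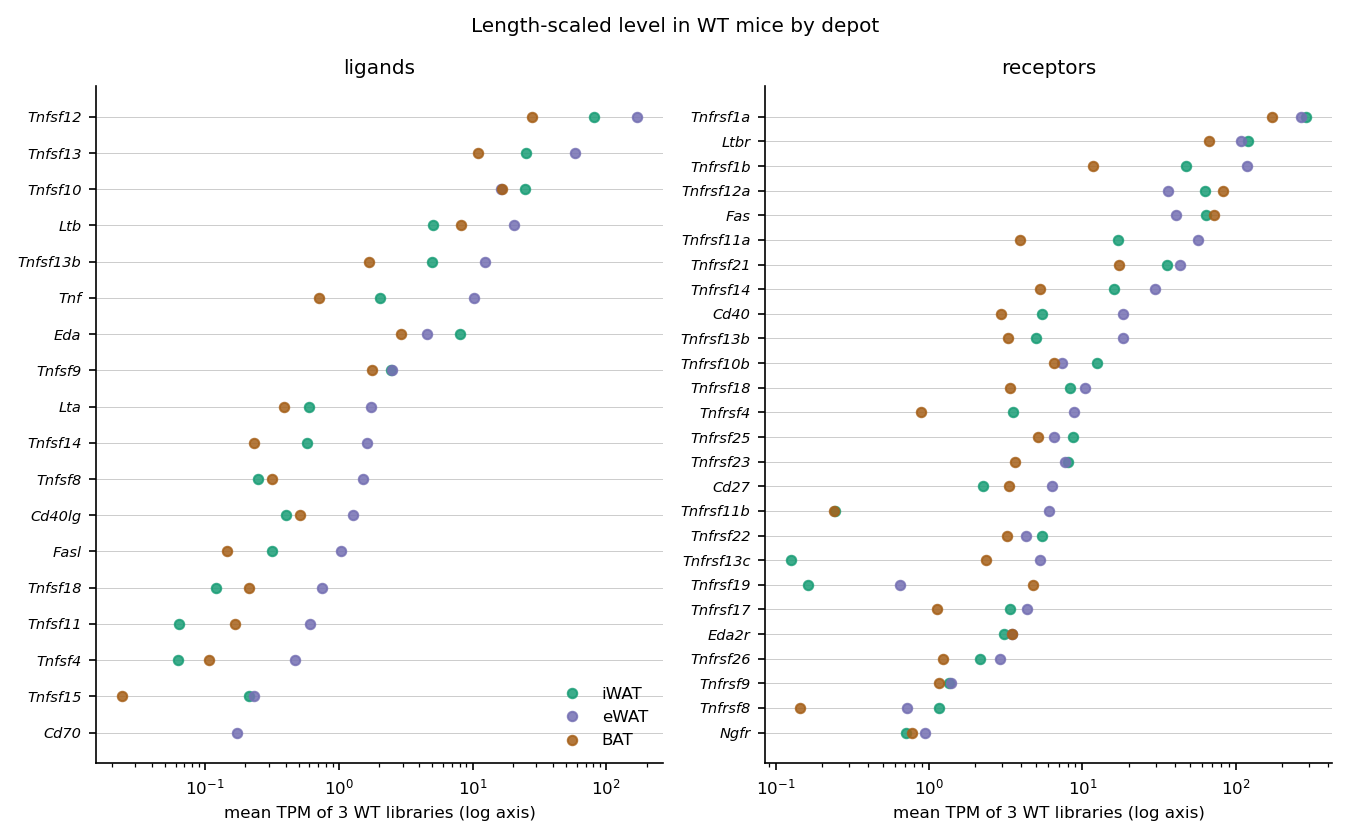
Mean TPM of the 3 WT libraries of each depot (log axis), with the 18 ligands at the left and the 26 receptors that reached 0.1 TPM in a depot at the right. Means under 0.01 TPM are not drawn, and Edar did not reach 0.1 TPM. Tnfrsf1a was the highest receptor and Tnfsf12 the highest ligand, and eWAT points lie to the right for Tnf, Tnfrsf11a and Tnfrsf1b.

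Depots were compared among WT mice with edgeR's quasi-likelihood test over 14175 genes whose counted transcript was the same in all 3 tables, which included 32 members. To be called, a gene needed an adjusted p (Benjamini-Hochberg, over all genes tested) below 0.05 and a fold change no smaller than 1.5. Between eWAT and iWAT, 10 of the 32 members were called (25.9% of all genes tested), 7 higher and 3 lower in eWAT. Tnf was higher in eWAT by 2.22 on the log2 scale (standard error, SE, 0.407, edgeR adjusted p = 0.000602), and so were its inducible receptor Tnfrsf1b (1.20, adjusted p = 0.000494), Tnfrsf11a (1.62, adjusted p = 0.00145) and the ligands Tnfsf12 (0.94) and Tnfsf13 (1.08). Tnfrsf11b, the soluble decoy for RANKL, had the largest difference of those called at 4.49 (SE 0.745, adjusted p = 0.000396), with 175, 118 and 65 counts in WT eWAT and 5, 3 and 6 in WT iWAT. Cd40, the costimulatory receptor of B cells and macrophages, was also higher (1.63, adjusted p = 0.0112). Fas, the TRAIL receptor Tnfrsf10b and Tnfsf10 were lower in eWAT by 0.78, 0.90 and 0.73 on the same scale.

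BAT was lower than iWAT for all 10 members called (38.8% of all genes tested). Tnfrsf1b was lower by 1.72 (adjusted p = 9.11e-06), Tnfrsf11a by 1.80 (adjusted p = 0.00055), Tnfsf12 by 1.24, Tnfsf13 by 0.88, Tnfrsf21 by 0.74 and Tnf by 1.18 (adjusted p = 0.0494), and the others were Tnfrsf10b, Tnfrsf14, Tnfrsf4 and Tnfrsf8. Tnfrsf1a and Ltbr passed the adjusted p but not the minimum fold change, with estimates of -0.43 and -0.54 for BAT minus iWAT, as did Fas with 0.50, higher in BAT. Between eWAT and BAT, 15 members were called (48.6% of all genes tested), 13 higher in eWAT and 2, Fas and Tnfrsf12a, higher in BAT. The differences of eWAT over BAT were 3.40 for Tnf (SE 0.467), 3.42 for Tnfrsf11a (SE 0.360) and 2.92 for Tnfrsf1b (SE 0.231), and that of Tnfrsf12a was -1.66 (SE 0.357, adjusted p = 0.000896). Reads of Tnf in WT mice did not overlap, at 75, 160 and 122 in eWAT against 6, 5 and 4 in BAT. The macrophage marker sum, over 9 genes including Adgre1, Cd68 and Csf1r, was 5430 to 6627 CPM in WT eWAT, 1491 to 1666 in WT iWAT and 587 to 725 in WT BAT. Its part in these differences was not tested, and in bulk tissue more cells of a type and more RNA per cell cannot be told apart. Without BAT WT 2, 14 members differed between BAT and iWAT and 21 between eWAT and BAT. Tnf, Tnfrsf14 and Tnfrsf4 were then no longer called between BAT and iWAT, while Fas and Tnfrsf12a were called higher in BAT. Without iWAT WT 2 that comparison called 6 members. The share of all genes called was not computed for these fits, so their counts cannot be read as particular to the members.

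For the genotypes, C6KO was compared with WT within each depot by the same test and thresholds. Genes with too few counts to be tested were set aside by edgeR's default filter, which left 31 members of 14533 genes (iWAT), 39 of 14889 (eWAT) and 24 of 13595 (BAT). In iWAT the 14 members not tested had at most 15 reads in a library, in eWAT the 6 had at most 18, and in BAT the 21 had at most 111, the Ltb count of WT 2. Estimates were lower in C6KO for 24 of 31 members in iWAT (median log2 fold change -0.39, against 0.03 over all genes tested), for 24 of 39 in eWAT (median -0.29, against -0.01) and for 15 of 24 in BAT (median -0.19, against -0.03). edgeR called 0 members in iWAT (0.0275% of all genes tested), 1 in eWAT (0.746%) and 0 in BAT (1.24%). At an unadjusted p below 0.05, 1 member was higher and 5 were lower in iWAT (7.25% and 9.29% of all genes tested), 2 higher and 7 lower in eWAT (9.81% and 7.82%), and 0 higher and 5 lower in BAT (4.56% and 8.64%). For iWAT DESeq2 called 2 members (4.57%), for eWAT 2 (4.02%) and for BAT 4 (3.70%), of which only Tnfrsf12a in eWAT was higher in C6KO.

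**Figure D2:**
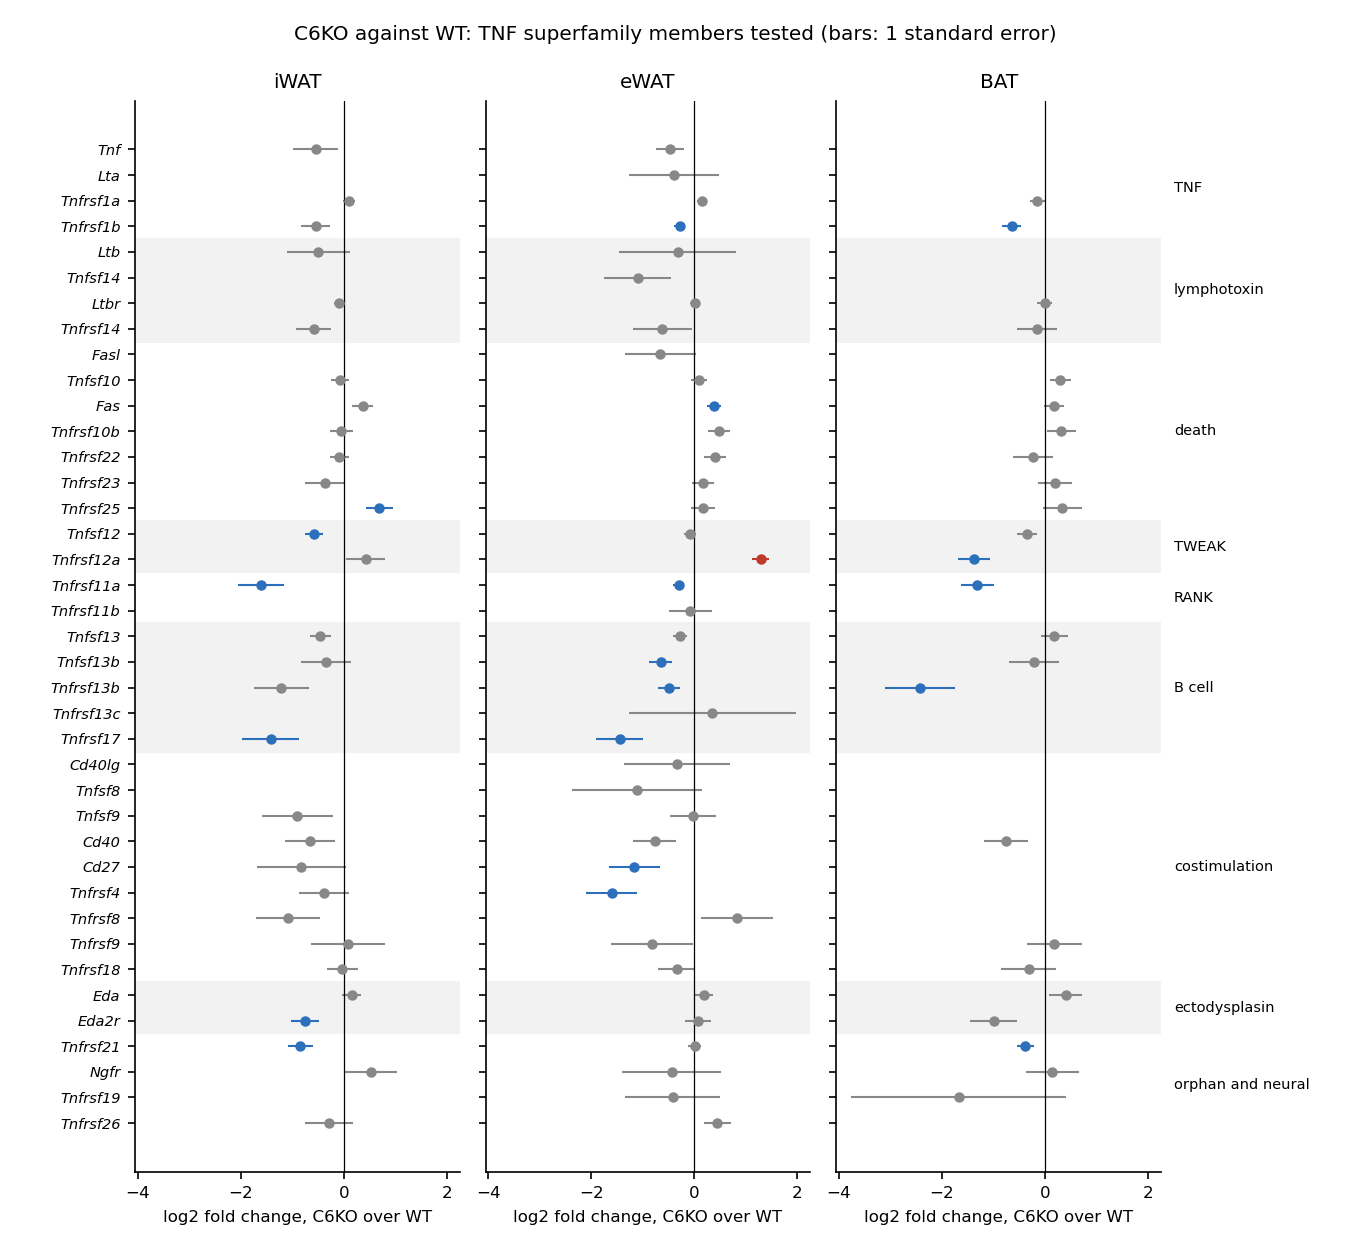
Log2 fold change of C6KO over WT for the 39 members tested in at least 1 depot, by role, with bars of 1 standard error from edgeR. Red marks an adjusted p below 0.05, blue an unadjusted p below 0.05 and grey all others, and a missing point a member with too few counts. Tnfrsf12a in eWAT is the single red point, at 1.28.

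Tnfrsf12a, also known as Fn14, was the member called by edgeR, and the sign of its estimate differed between depots. In eWAT, WT gave 277, 202 and 244 reads and C6KO gave 487, 683 and 611, which is 13.9 ± 2.68 against 33.8 ± 3.97 CPM. Every C6KO library lay above every WT library, with a log2 fold change of 1.28 (SE 0.166, adjusted p = 0.0278 by edgeR and 3.65e-08 by DESeq2), or 2.44-fold. In BAT the order was the opposite, with WT at 425, 249 and 327 reads and C6KO at 129, 144 and 153, which is 36.5 ± 16.8 against 14.03 ± 1.83 CPM. The groups did not overlap in BAT, and the log2 fold change of -1.38 (SE 0.316) had an adjusted p of 0.0904 from edgeR and 0.00251 from DESeq2. In iWAT, WT gave 469, 434 and 326 reads and C6KO gave 912, 338 and 458. These overlapped, with a log2 fold change of 0.42 (SE 0.372, edgeR adjusted p = 0.611), and C6KO 1 alone stood above the WT range by more than its width. Adipocyte and endothelial markers were also higher in C6KO eWAT. The adipocyte sum over 5 genes was 9341 to 11147 CPM in WT and 12817 to 16669 in C6KO, with all 5 higher at an unadjusted p below 0.05. The endothelial sum over 4 genes was 481 to 540 against 659 to 832, with 3 of 4 higher at that level. Of all genes tested, 9.81% were higher in C6KO eWAT at that level. In BAT, where Tnfrsf12a was lower in C6KO, the endothelial sum was 711 to 877 CPM in WT and 981 to 985 in C6KO. The adipocyte sums of BAT overlapped. In iWAT, where Tnfrsf12a overlapped, the adipocyte sum was 21040 to 24587 CPM in WT and 27894 to 29621 in C6KO. The endothelial sums of iWAT overlapped. The part of these cells in the Tnfrsf12a differences was not tested.

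The difference between depots was tested itself, as an interaction in 1 edgeR fit of all 18 libraries over 15866 genes, of which 40 were members. The C6KO effect on Tnfrsf12a was higher in eWAT than in BAT by 2.68 on the log2 scale (SE 0.506, edgeR adjusted p = 0.0238), and no other member was called in this contrast (0.536% of all genes tested). For BAT minus iWAT the difference was -1.82 (SE 0.500, adjusted p = 0.227), and for eWAT minus iWAT it was 0.86 (SE 0.492, adjusted p = 0.960). edgeR called 0 members in these contrasts, against 0.183% and 0% of all genes, and 0 genes at all in the last one, in which DESeq2 called 0 members too. An unadjusted p below 0.05 was found for 4 of the 40 members in eWAT minus iWAT, Tnfrsf11a, Tnfrsf11b, Tnfrsf21 and Tnfsf12 (5.48% of all genes tested). It was found for 2 in BAT minus iWAT, Tnfrsf11b and Tnfrsf12a (9.93%), and for 4 in eWAT minus BAT, Tnfrsf12a, Tnfrsf13b, Tnfrsf26 and Tnfrsf4 (11.2%).
The eWAT call of Tnfrsf12a was lost without any 1 of the WT libraries (adjusted p from 0.0829 to 0.123 with estimates of 1.14 to 1.43), with all 18 libraries in 1 fit (edgeR adjusted p = 0.208), and without the 3 libraries that were high in B cell markers (1.01, edgeR adjusted p = 0.863), a fit whose single WT library is assumed to vary like the C6KO ones. The interaction call was lost without 8 of its 12 libraries in turn, with adjusted p-values up to 0.0928 and estimates between 2.53 and 2.82 in those fits. In BAT the estimate was -0.94 without WT 1, the library with the most Tnfrsf12a reads, and was -1.64 without WT 2 (edgeR adjusted p = 0.0121).

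Its ligand TWEAK was not called in any depot. In eWAT, 2129, 1794 and 2059 reads of Tnfsf12 for WT overlapped with 1706, 2055 and 1914 for C6KO (log2 fold change -0.09, SE 0.116). The iWAT reads were 999, 805 and 1009 for WT, then 530, 599 and 809 for C6KO. On the CPM scale all C6KO libraries of iWAT were below the WT libraries, with a log2 fold change of -0.58 (SE 0.177, edgeR adjusted p = 0.190). For BAT, WT gave 166, 230 and 216 reads and C6KO gave 114, 204 and 197, a log2 fold change of -0.35 (SE 0.185, adjusted p = 0.460). The plot of CPM by library sets the pair side by side.

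**Figure D3:**
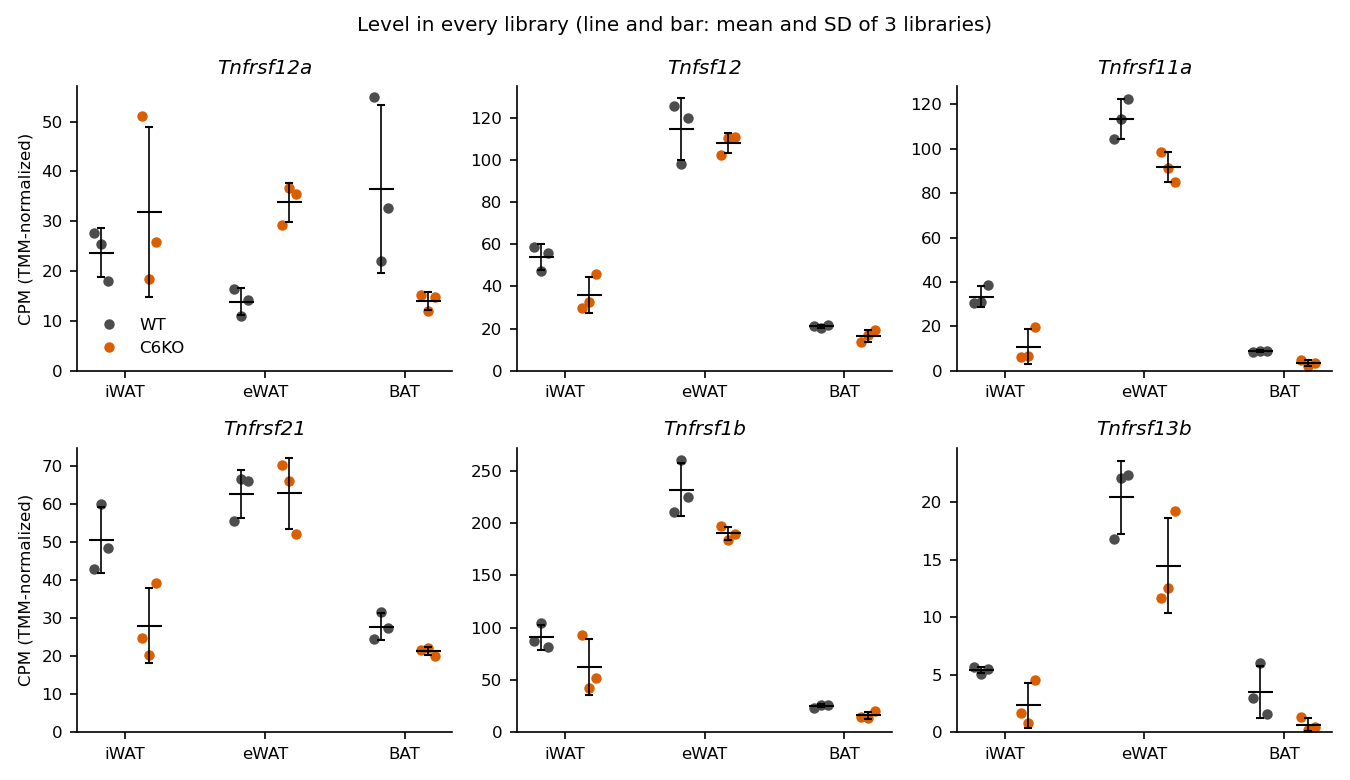
CPM (TMM-normalized) in each of the 18 libraries for Tnfrsf12a, its ligand Tnfsf12 and the receptors Tnfrsf11a, Tnfrsf21, Tnfrsf1b and Tnfrsf13b. Grey points are WT and orange points C6KO, and the line and bar give the mean and SD of 3 libraries. Tnfrsf12a is higher in C6KO eWAT and lower in C6KO BAT, while Tnfrsf11a is lower in C6KO in each depot.

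RANK, encoded by Tnfrsf11a, had every C6KO library below every WT library in each depot. In iWAT, WT gave 518, 525 and 699 reads and C6KO gave 113, 123 and 351, which is 33.4 ± 4.74 against 11.0 ± 7.71 CPM. The log2 fold change of -1.61 (SE 0.447) had an adjusted p of 0.188 from edgeR and 0.00246 from DESeq2. Among the C6KO libraries, C6KO 3 stood apart from the other two. For BAT, WT gave 65, 104 and 89 reads and C6KO gave 42, 27 and 36, which is 8.82 ± 0.389 against 3.57 ± 1.37 CPM, with a log2 fold change of -1.31 (SE 0.323, edgeR adjusted p = 0.0991, 0.0185 from DESeq2). In eWAT, where WT levels were highest, WT gave 1767, 2074 and 2096 reads and C6KO gave 1643, 1699 and 1468, and the log2 fold change was -0.31 (SE 0.106, adjusted p = 0.171). The interaction between eWAT and iWAT was 1.30 (SE 0.455, edgeR adjusted p = 0.890). Without iWAT C6KO 3 it was 2.06 (edgeR adjusted p = 0.000411), but that fit leaves out the C6KO library nearest to WT, which enlarges the difference.
Its ligand Tnfsf11, which encodes RANKL, had at most 5 reads in an iWAT or BAT library and 2 to 14 in an eWAT library. Tnfrsf11b had 5, 3 and 6 reads in WT and none in C6KO libraries of iWAT. Set against a floor of 3 reads over the C6KO group in place of the 0 found, this was 5.06-fold lower, a bound set by the floor. That value takes the WT reads as exact, and the gene had too few reads to be tested in iWAT. In eWAT, Tnfrsf11b overlapped between genotypes, with 175, 118 and 65 against 65, 111 and 166 counts.

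The macrophage markers also stood lower in C6KO. Their sum was 1491 to 1666 CPM in WT and 392.5, 422 and 1140 in C6KO 1, 2 and 3 of iWAT, 5430 to 6627 against 3683 to 4481 in eWAT, and 587 to 725 against 227 to 332 in BAT. At an unadjusted p below 0.05, iWAT and eWAT each had 8 of the 9 markers lower and BAT had 7, DESeq2 called 4, 2 and 7 of them, and edgeR 0, 0 and 3 (Adgre1, Cd68 and Lyz2). Over all genes tested, 9.29%, 7.82% and 8.64% were lower at that p. DESeq2 called 498 of 14581, 190 of 15417 and 391 of 14764 genes lower, and edgeR 3 of 14533, 31 of 14889 and 145 of 13595. The iWAT library with the highest Tnfrsf11a count in C6KO was thus also the one with the highest macrophage marker sum. The part of these cells in the Tnfrsf11a difference was not tested. Without iWAT C6KO 3, edgeR called 7 members, of which Tnfrsf11a (-2.38), Tnfrsf13b (-2.14), Tnfrsf21 (-1.19), Tnfrsf23 (-0.99), Tnfsf12 (-0.81) and Tnfsf13 (-0.70) were lower (6.43% of all genes tested were called lower in that fit) and Tnfrsf25 (0.88) was higher. Only a pair of C6KO libraries remains in that fit, and the spread of each gene was estimated over both genotypes together.

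**Figure D4:**
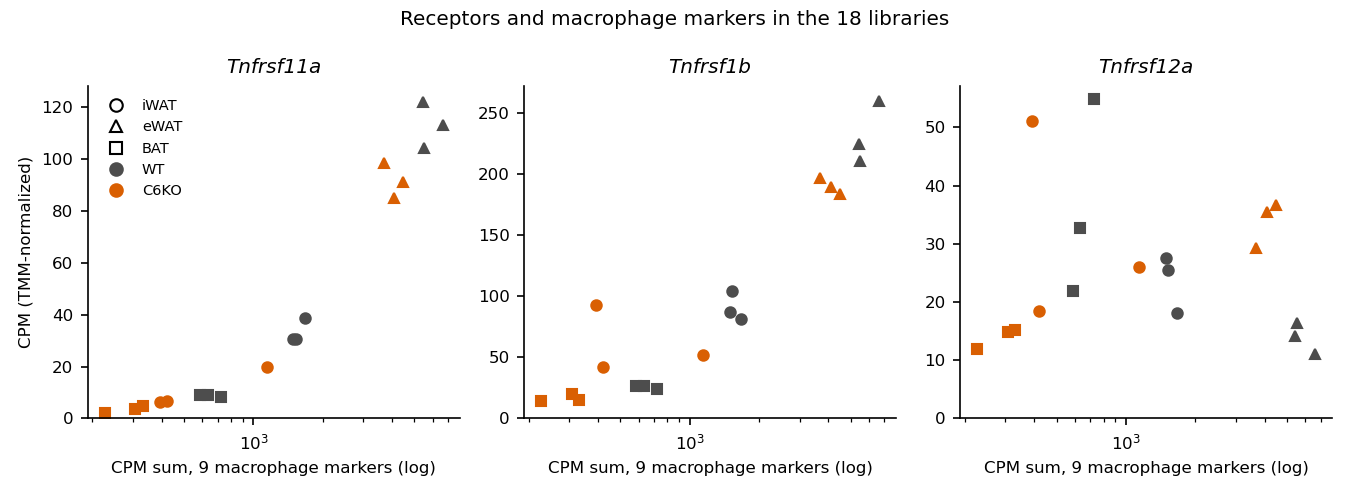
CPM (TMM-normalized) of Tnfrsf11a, Tnfrsf1b and Tnfrsf12a against the summed CPM of 9 macrophage markers (log axis) in the 18 libraries. Shape gives the depot and colour the genotype. Tnfrsf11a and Tnfrsf1b are highest in the eWAT libraries, which have the highest marker sums, and Tnfrsf12a is not.

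Tnf and its receptors were not called in any depot in which they were tested, and Tnf was not tested in BAT. In iWAT, Tnf had 16, 25 and 27 reads for WT and 16 in each C6KO library, which on the CPM scale were just below the WT range (log2 fold change -0.54, SE 0.441, edgeR adjusted p = 0.572). The eWAT reads, 75, 160 and 122 for WT, overlapped with 68, 98 and 91 for C6KO (log2 fold change -0.47, SE 0.274, adjusted p = 0.426). BAT had 6, 5 and 4 reads in WT and 0, 1 and 3 in C6KO, too few to be tested. Tnfrsf1b, the receptor found on immune and endothelial cells, gave 3576, 4759 and 3857 reads for WT eWAT, 3279, 3425 and 3271 for C6KO eWAT, 184, 300 and 264 for WT BAT, and 126, 167 and 206 for C6KO BAT. On the CPM scale the groups did not overlap in these depots, with log2 fold changes of -0.29 (SE 0.109, adjusted p = 0.211) and -0.65 (SE 0.192, adjusted p = 0.161). In iWAT, 1484, 1781 and 1464 WT reads overlapped with 1658, 774 and 919 C6KO reads. Tnfrsf1a had log2 fold changes of 0.15 in eWAT (adjusted p = 0.459), 0.10 in iWAT (adjusted p = 0.718) and -0.15 in BAT (adjusted p = 0.727), all from edgeR.

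A group of 8 members around Fas and TRAIL held Fas, Fasl, Tnfsf10, Tnfsf15, Tnfrsf10b, Tnfrsf22, Tnfrsf23 and Tnfrsf25. Tnfrsf1a and Tnfrsf21 were grouped elsewhere. Of its tested members, 6 of 7 had a higher estimate in C6KO eWAT, 5 of 6 in C6KO BAT and 2 of 6 in iWAT. Over all genes tested, estimates were higher for 7313 of 14889, 6267 of 13595 and 7815 of 14533 in that order. No member of the group was called. Fas gave 437, 437 and 381 reads for WT eWAT and 539, 652 and 452 for C6KO eWAT, without overlap on the CPM scale (log2 fold change 0.38, SE 0.137, edgeR adjusted p = 0.187). Its counts overlapped in iWAT, at 781, 585 and 561 against 1060, 845 and 677, and in BAT, at 412, 402 and 561 against 414, 711 and 568. Tnfrsf25, the receptor of Tnfsf15, gave 94, 82 and 108 reads for WT iWAT and 175, 193 and 107 for C6KO iWAT, apart on the CPM scale (log2 fold change 0.69, SE 0.260, adjusted p = 0.245). Tnfsf10 overlapped between genotypes in each depot, with 937, 807 and 759 against 770, 697 and 996 counts in iWAT, 430, 629 and 635 against 554, 571 and 667 in eWAT, and 335, 321 and 394 against 319, 530 and 562 in BAT. Fasl, the ligand of cytotoxic lymphocytes, had at most 27 reads in a library and was tested in eWAT only (-0.66, SE 0.683). Reads of Tnfrsf23 and Tnfrsf26 lie partly on exons of an antisense gene, E230032D23Rik, and those of Tnfrsf18 and Tnfsf9 on Gm16008 and Gm11110. Whether the counting used strand is not given in the sources used here, so these counts are uncertain.

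Tnfrsf21, also called DR6, had lower C6KO libraries without overlap in iWAT and BAT, and overlapped in eWAT. In iWAT, WT gave 730, 1023 and 872 reads and C6KO gave 441, 372 and 693, which is 50.5 ± 8.69 against 28.1 ± 9.90 CPM, with a log2 fold change of -0.85 (SE 0.245, edgeR adjusted p = 0.184, 0.0278 from DESeq2). Reads in BAT were 189, 358 and 275 for WT, then 183, 267 and 207 for C6KO (-0.39, SE 0.165, adjusted p = 0.353). In eWAT, 939, 1217 and 1135 counts overlapped with 1169, 1229 and 901, with an estimate of 0.00 (SE 0.134). The eWAT minus iWAT interaction was 0.85 (SE 0.278, edgeR adjusted p = 0.890). It was 1.18 without iWAT C6KO 3 (edgeR adjusted p = 0.00942), again with the C6KO library nearest to WT left out.

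The B cell survival branch has the ligands Tnfsf13 and Tnfsf13b (BAFF) and the receptors Tnfrsf13b (TACI), Tnfrsf13c (BAFF receptor) and Tnfrsf17 (BCMA). It had lower estimates in C6KO for 4 of 4 tested members (iWAT), 4 of 5 (eWAT) and 2 of 3 (BAT). Over all genes tested, estimates were lower for 6718 of 14533, 7576 of 14889 and 7328 of 13595. Tnfrsf13b gave 96, 87 and 99 reads for WT iWAT and 30, 15 and 80 for C6KO iWAT, without overlap (log2 fold change -1.21, SE 0.532, edgeR adjusted p = 0.305). In eWAT, 284, 405 and 383 reads overlapped with 195, 233 and 331 (-0.50, SE 0.209, adjusted p = 0.257), and in BAT 23, 68 and 16 lay above 11, 3 and 5. The BAT difference of -2.42 (SE 0.686) had an adjusted p of 0.146 from edgeR and 0.0389 from DESeq2, and the estimate was -1.78 without WT 2 and -3.20 without C6KO 1. Tnfrsf17 was low throughout, with 14, 23 and 18 against 10, 5 and 6 reads in iWAT and 18, 30 and 26 against 6, 12 and 9 in eWAT (-1.45, SE 0.455, adjusted p = 0.139). Tnfsf13b gave 126, 217 and 131 reads for WT eWAT and 94, 108 and 97 for C6KO eWAT (-0.66, SE 0.225, adjusted p = 0.167).
Tnfsf13 had 272, 257 and 336 against 173, 201 and 276 counts in iWAT, 757, 623 and 649 against 565, 568 and 544 in eWAT, and 78, 70 and 88 against 67, 110 and 116 in BAT. Its log2 fold changes were -0.46 (SE 0.208), -0.28 (SE 0.127) and 0.18 (SE 0.260), and the groups lay apart in eWAT only.

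Tnfrsf13c was high in the libraries with high B cell markers, in both genotypes. Its eWAT reads were 6, 50 and 157 for WT, then 15, 11 and 243 for C6KO, and in BAT 61 reads in WT 2 against at most 4 in the other libraries. Cd27, a receptor of T and memory B cells, had 70 reads in BAT WT 2 and at most 3 elsewhere in BAT, and 33, 118 and 60 against 28, 19 and 45 in eWAT (log2 fold change -1.17, SE 0.491, adjusted p = 0.258). Ltb had 7, 111 and 8 reads for WT BAT, then 5, 4 and 3 for C6KO BAT. DESeq2 called Ltb lower in C6KO BAT (-3.23, adjusted p = 0.0276), with most of the WT reads in that library, while edgeR's filter set Ltb aside. In iWAT Ltb had 14, 61 and 37 against 16, 22 and 44 reads, which overlapped.

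**Figure D5:**
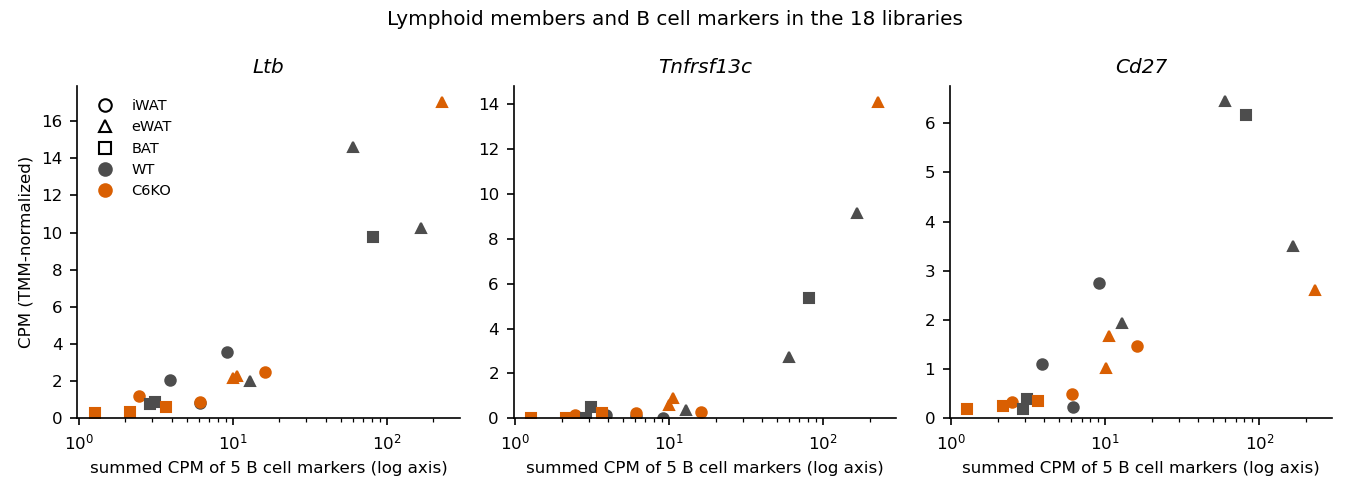
CPM (TMM-normalized) of Ltb, Tnfrsf13c and Cd27 against the summed CPM of 5 B cell markers (log axis) in the 18 libraries. Shape gives the depot and colour the genotype. The 4 libraries with sums of 60.0 CPM or more, BAT WT 2 and eWAT WT 2, WT 3 and C6KO 3, are the highest for Ltb and Tnfrsf13c.

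Members of the costimulatory branch, through which T cells and antigen-presenting cells activate each other, were sparse. Of 12 such members, iWAT allowed a test of 7, eWAT of 9 and BAT of 3, with lower estimates in C6KO for 6, 8 and 2 of them. All genes tested had lower estimates for 6718 of 14533, 7576 of 14889 and 7328 of 13595. Tnfrsf4, the T cell receptor OX40, gave 33, 111 and 70 reads for WT eWAT and 16, 16 and 37 for C6KO eWAT, a log2 fold change of -1.61 (SE 0.499, edgeR adjusted p = 0.136, 0.0374 from DESeq2). The groups overlapped on the CPM scale by the C6KO 3 library, and the estimate was -1.19 without WT 2. T cell markers summed to 27.2, 111 and 54.2 CPM in WT and 15.1, 11.6 and 71.8 in C6KO libraries of eWAT, and their part in the Tnfrsf4 difference was not tested. Cd40 overlapped in each depot, with 146, 364 and 185 against 76, 125 and 202 counts in eWAT. Tnfsf9, the ligand of 4-1BB, had 9, 10 and 9 reads in WT and 1, 5 and 2 in C6KO libraries of BAT, too few to be tested. Cd40lg had 9 reads over the WT libraries of BAT and none in C6KO, and Tnfsf8 had 10 and none. Against a floor of 3 reads over the C6KO group in place of the 0 found, these were 3.22-fold and 3.58-fold lower. Both folds are bounds set by the floor, with the WT reads taken as exact. Of the WT reads 7 and 9 came from WT 2, so these folds rest mainly on that library. In eWAT, Tnfsf18 had 7, 10 and 15 reads in WT and 0, 2 and 1 in C6KO.

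The remaining members act mainly outside the immune system. Eda, which patterns hair and glands, overlapped between genotypes in each depot, with 247 to 389 reads (iWAT), 145 to 210 (eWAT) and 45 to 150 (BAT). Its receptor Eda2r gave 120, 78 and 103 reads for WT iWAT and 60, 70 and 55 for C6KO iWAT (log2 fold change -0.75, SE 0.269, edgeR adjusted p = 0.232). In BAT, Eda2r had 142 counts in WT 2 and 28 to 45 in the other libraries, and Tnfrsf19 316 counts in WT 2 and 0 to 43 elsewhere. Both therefore stood out in the library with the skeletal muscle and B cell markers. Ngfr, the low-affinity neurotrophin receptor of nerve and Schwann cells, had 1 to 40 reads in a library and overlapped in each depot.

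Members whose CPM values did not overlap between genotypes numbered 1 higher and 8 lower of 31 in iWAT (10.9% and 12.2% of all genes tested), 5 higher and 5 lower of 39 in eWAT (12% and 11.2%), and 0 higher and 6 lower of 24 in BAT (8.07% and 12.1%). The lower members were Eda2r, Tnf, Tnfrsf11a, Tnfrsf13b, Tnfrsf14, Tnfrsf17, Tnfrsf21 and Tnfsf12 in iWAT. They were Tnfrsf11a, Tnfrsf17, Tnfrsf1b, Tnfsf13 and Tnfsf13b in eWAT, and Tnfrsf11a, Tnfrsf12a, Tnfrsf13b, Tnfrsf1b, Tnfrsf21 and Tnfsf12 in BAT. Of the higher ones, Tnfrsf25 was found in iWAT, and Fas, Tnfrsf12a, Tnfrsf1a, Tnfrsf22 and Tnfrsf26 in eWAT.

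Downstream of the receptors, 29 genes that carry TNF receptor signals, such as the TRAF adaptors, the kinases Ripk1 and Ripk3 and the linear ubiquitin ligase subunits, were tested in all 3 depots. Their median log2 fold changes were -0.03 (iWAT), -0.08 (eWAT) and -0.12 (BAT), and neither edgeR nor DESeq2 called any of them (edgeR's unadjusted p was below 0.05 for 3, 1 and 3, all lower). Of 25 genes known to be induced by TNF, iWAT allowed a test of 22, eWAT of 24 and BAT of 20, with medians of -0.37, -0.14 and -0.81. Their estimates were lower in C6KO for 19, 14 and 17 genes. At an unadjusted p below 0.05 by edgeR, 5, 2 and 7 were lower and 0, 2 and 0 higher. Over all genes tested, 9.29%, 7.82% and 8.64% were lower and 7.25%, 9.81% and 4.56% higher at that level. edgeR called 1 of the induced genes, in eWAT, where it called 0.746% of all genes tested. This was Ccl2, a monocyte chemokine, which was higher in C6KO eWAT with 355, 347 and 314 reads for WT, then 500, 599 and 595 for C6KO (log2 fold change 0.73, SE 0.119, edgeR adjusted p = 0.0432). The BAT reads of Ccl2 were 125, 48 and 51 for WT, then 18, 8 and 12 for C6KO (-2.70, SE 0.647, edgeR adjusted p = 0.107, 0.000928 from DESeq2). DESeq2 also called Saa3, an acute-phase protein, lower in BAT (-2.56), and 4 genes lower in iWAT. These were Tnfaip2 (-1.10), the neutrophil chemokine Cxcl2 (-3.35), the iron-binding protein Lcn2 (-1.80) and the matrix protease Mmp3 (-1.05). DESeq2 tested 21 of the induced genes in iWAT and 23 in BAT. Over all genes it called 498 of 14581 lower in iWAT and 391 of 14764 in BAT. Il6 had at most 6 reads in any library and was not tested.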

How the data were processed

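Libraries were made from polyadenylated RNA and run on a NextSeq instrument. STAR with default parameters placed the reads on the mouse genome mm10, and HOMER counted those on exons, with 1 transcript kept per gene. The authors deposited these counts, whole numbers without normalization, in 1 table per depot. For 2619 genes, 8 of them members (Eda, Fasl, Tnfrsf13b, Tnfrsf13c, Tnfrsf19, Tnfrsf22, Tnfrsf9 and Tnfsf13b), the transcript differs between tables, so these members were left out of the depot comparison. Tool versions and the strandedness of the libraries are not given in the sources used here.

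From the counts, edgeR 4.0.16 (limma 3.58.1, R 4.3.3) was run over all genes with TMM normalization, the filterByExpr filter and the robust quasi-likelihood test, on 6 libraries per depot for genotypes and on all 18 for interactions and depots. DESeq2 1.42.0 was an alternative. The scripts were tested on simulated data. Figures used matplotlib 3.10.9. Samples were grouped by their labels, and replicate numbers are those of the labels. The labels call the libraries biological replicates, but do not say which depots came from the same animal. Counts of a few reads carry counting error that no normalization removes, most in BAT. The members and gene lists were chosen with earlier results of these data known. Any member could be named. Counts of every library were given for members called in a depot or an interaction by either tool, for Tnf and for the most abundant ligands and receptors, genes of the signalling and induced lists were named when called, and others were chosen after their values were seen. Alternatives were DESeq2, DESeq2 size factors in edgeR, no filter, no minimum fold change, a replicate block, all libraries in 1 fit, the 9 WT libraries alone for depots, leaving out each library, and, added after seeing the data, eWAT without 3 libraries.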

Additional observations from a re-analysis of the deposited data

Results flagged for a closer look

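The C6KO effect on Tnfrsf12a differed between eWAT and BAT by 2.68 on the log2 scale (standard error 0.506, edgeR adjusted p = 0.0238), which brought it to a closer look as a difference between depots under the same contrast. All 3 C6KO libraries were above the 3 WT libraries in eWAT and all 3 were below them in BAT. With DESeq2 the difference was 2.67 (adjusted p = 3.99e-05).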

How the results depend on the processing

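Numbers of members called differed from those of the edgeR fit as follows. In iWAT, eWAT and BAT, DESeq2 called 2, 2 and 4, and 1, Tnfrsf12a, for the C6KO effect in BAT minus iWAT. All 18 libraries in 1 fit gave 2 (Tnfrsf11a and Tnfrsf21), 0 and 2 (Tnfrsf12a and Tnfrsf13b), and eWAT without the 3 libraries with most B cell marker reads gave 0. Leaving out each library in turn gave 0 to 7 in iWAT, 0 to 1 in eWAT, 0 to 1 in BAT, 0 to 2 for eWAT minus iWAT, 0 to 1 for eWAT minus BAT, and, between WT depots, 6 to 14 for BAT minus iWAT. The cause was not tested. The replicate block called 0, 1 and 0 members in iWAT, eWAT and BAT and 11, 8 and 15 between WT depots. Tnfrsf12a in eWAT was at 1.29 (adjusted p = 0.0110 by edgeR), and no interaction call changed. The block was the replicate number alone, shared by WT and C6KO, which are different mice. It therefore cannot stand for the animal in the fits of all 18 libraries, and without it those fits treat the libraries as independent. Apart from the shares given above, the share of all genes called was not computed for these alternative fits. Same-numbered WT and C6KO libraries had mean correlations of their deviations of 0.0461, 0.0662 and -0.263 in the same order, and same-numbered libraries of different depots had mean correlations from -0.001982 to 0.1177, the highest for WT iWAT with eWAT. Since the single pairs were not all above 0.1 in any of these, the numbers were not read as pairs. Among genotype estimates the block turned the sign of 5, none of them called, including BAT Tnfrsf19 (-1.68 to 1.24), eWAT Tnfrsf13c (0.35 to -0.09) and iWAT Tnfrsf9 (0.08 to -0.12). Other changes of sign included eWAT Tnfrsf21 at -0.0037 with the block and -0.00048 with all libraries, and, without the 3 eWAT libraries, Ltb at 0.14 and Tnf at 0.0756. Without each library in turn, estimates ranged from -1.06 to 0.083 for Ltb and -0.10 to 0.70 for Tnfrsf12a in iWAT, and from -2.02 to 0.22 for Ltb and -0.0753 to 0.12 for Tnfrsf21 in eWAT. Likewise they ranged from -1.51 to 0.71 for Ltb and -0.15 to 0.30 for Tnf in eWAT minus iWAT, and from -0.0258 to 1.02 for Tnfrsf11a in BAT minus iWAT. BAT was the shallowest depot, and 21 of 45 members had too few reads there to be tested.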
